A study of Mus musculus with 4 samples.

Results

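The cell-surface and pericellular coat of MLO-Y4 cells was described through 10 genes: the secreted heparan sulfate proteoglycans perlecan (*Hspg2*) and agrin (*Agrn*), the glypicans *Gpc1* and *Gpc6*, the 4 syndecans *Sdc1*, *Sdc2*, *Sdc3* and *Sdc4*, the hyaluronan synthase *Has2* and the hyaluronan receptor *Cd44*. They were chosen by name among the 55450 genes of the count table, each name was found once, and all 10 were among the 16269 genes that passed the filter on low counts. Total RNA of MLO-Y4 was sequenced from 2 samples of unloaded and 2 samples of loaded cells. MLO-Y4 is a mouse osteocyte-like cell line recorded as bone tissue of WT genotype. The line is a clone of immortalized cells, so both groups share 1 genetic origin. The loaded cells were stretched equally in all directions for 12 h, with 20% strain in cycles of 0.5 Hz, on elastic silicone membranes coated with type I collagen. The unloaded cells sat for the same 12 h in the same incubator, on ordinary culture plates without stretch. The groups therefore differed in stretch and in what the cells were attached to, and the effects of the 2 cannot be told apart. No record says whether the samples of a group came from separate cultures, so each p-value measures only the spread between these samples, which may be technical.

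Heparan sulfate proteoglycans are core proteins that carry long sulfated sugar chains, which bind water, growth factors and matrix proteins. Perlecan and agrin are secreted into basement membranes and the pericellular matrix. Glypicans are held on the cell surface by a lipid anchor, and syndecans cross the membrane and connect the chains to the cytoskeleton. Hyaluronan is a sugar chain without a core protein, extruded by synthases in the plasma membrane and held by receptors such as CD44. In bone, osteocytes sit in fluid-filled channels, and perlecan is a component of the tethers that link the cell process to the channel wall. The comparison asked which of these coat genes differed between loaded and unloaded cells.

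*Gpc1* and *Hspg2* stood out in opposite directions. Levels are given as CPM, the counts scaled to the library size after TMM normalization. *Gpc1* was 1.36-fold higher in loaded cells and *Hspg2* was at 0.816 times its unloaded level. Both passed DESeq2 at an adjusted p under 0.01, and neither passed edgeR's quasi-likelihood test at that threshold. *Agrn* was lower by more than *Hspg2* in the fit, but passed neither. The 4 syndecans, *Gpc6*, *Has2* and *Cd44* had intervals that included no change.

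By edgeR, 0 of the 10 genes had an adjusted p under 0.01, against 0.0983% of all tested genes. At an adjusted p under 0.05, 1 gene was called, *Gpc1*, against 0.904% of all. An unadjusted p under 0.05 was found for 3 genes, *Gpc1* higher and *Hspg2* and *Agrn* lower, against 14.3% of all tested genes. DESeq2, which tested 12484 genes after its own filter, called 2 of the 10 at an adjusted p under 0.01, against 2.91% of all. The 10 log2 fold changes were split evenly, 5 higher and 5 lower, and their median was -0.05 beside -0.01 for all tested genes. The loaded and unloaded values did not overlap for 8 of the 10 genes, 3 higher and 5 lower, but with 2 samples a group this also held for 46.6% of all tested genes.

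**Figure D1:**
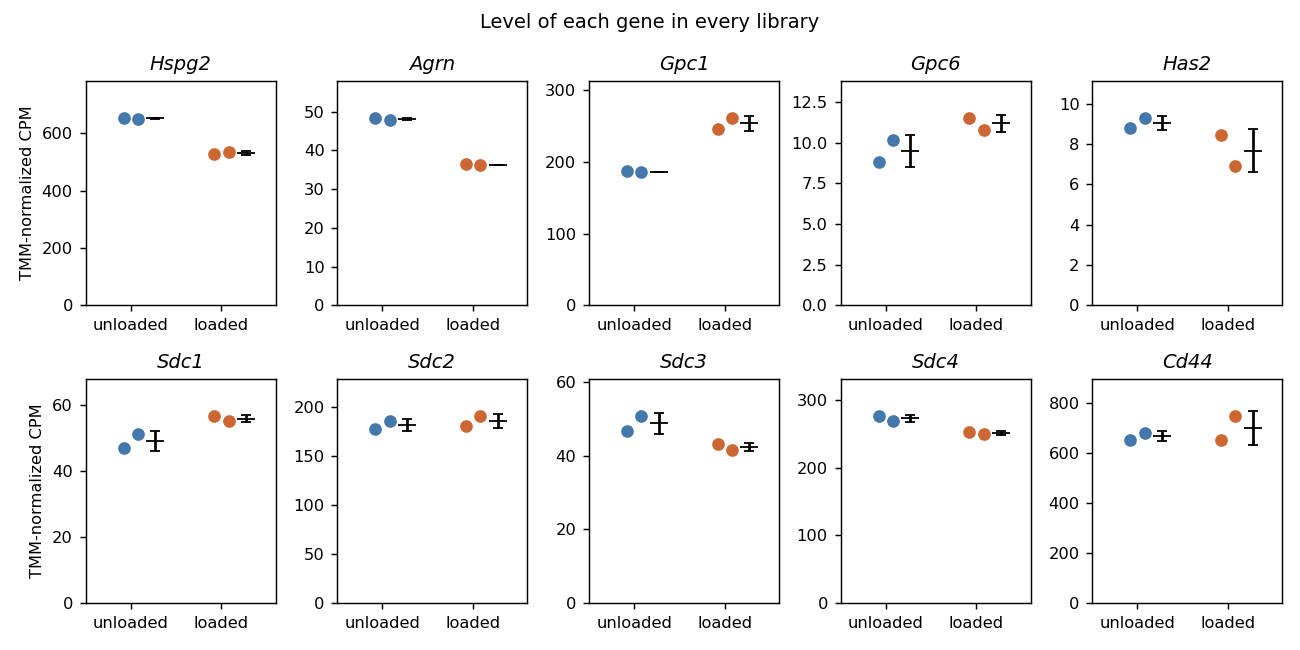
Level of each of the 10 genes in every library in CPM after TMM normalization, on axes that start at 0. Points are the 2 unloaded and 2 loaded libraries, and the bar beside them is the mean with the SD (n = 2). The groups are separated for 8 genes and overlap for *Sdc2* and *Cd44*.

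Library totals were between 28941994 and 32185693 counts, and 3 counts, taken as the floor of detection, corresponded to between 0.093 and 0.103 CPM. Replicates differed by more than counting noise, with a chi-square per degree of freedom of 17.6 and 19 within groups and 26.8 to 30.5 between groups, so no library was a copy of another. The osteocyte markers *Pdpn*, *Gja1* and *Phex* were expressed, whereas *Dmp1* had 12 to 14 counts, *Sost* had 4 counts in 1 library, *Mepe* had none and *Fgf23* had 4 and 9 counts in unloaded and 0 in loaded libraries. Of the osteoblast markers, *Col1a1* was high, at 1012 CPM in unloaded and 953 CPM in loaded cells, and *Bglap*, *Alpl*, *Ibsp* and *Sp7* had at most 25 counts in any library. Of the 6 macrophage and osteoclast markers, 3 were tested: *Csf1r* was at 1579 and 1560.2 CPM, *Cd68* at 5.12 and 2.94 CPM and *Ctsk* at 4.99 and 7.64 CPM. *Ptprc*, *Adgre1* and *Acp5* had at most 5 counts. The summed per-length level of that list was between 926 and 969 TPM in the 4 libraries, where TPM is the count per exon length scaled to the same total in each library, almost all of it *Csf1r*. The 4 epithelial markers together reached at most 1.33 TPM and the 4 endothelial markers at most 2.49 TPM. The part of other cells in the results below was not tested.

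*Hspg2* encodes perlecan (ENSMUSG00000028763.17, GRCm38 chr4:137468769-137570630, + strand), and its longest coding transcript has 97 exons. It had 18943 and 19721 counts in the unloaded and 17023 and 15979 counts in the loaded libraries. After normalization these were 652 and 651 CPM against 528 and 536 CPM, so both loaded values lay below both unloaded ones. The mean level was 652 ± 1.07 CPM in unloaded and 532 ± 6.05 CPM in loaded cells (SD, n = 2). The log2 fold change was -0.29 with an SE of 0.0519 and a 95% interval from -0.42 to -0.17. The edgeR adjusted p was 0.0837 and the DESeq2 adjusted p 0.00504, and over the 10 alternatives the adjusted p ran from 0.00504 to 0.292. Leaving out any 1 library kept the log2 fold change between -0.30 and -0.28. The counting error of each library was at most 0.791% of its count, so depth was not the limit for this gene.

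*Agrn* encodes agrin, known for gathering acetylcholine receptors at the neuromuscular junction and for binding laminin and dystroglycan (ENSMUSG00000041936.18, chr4:156165290-156197488, - strand, 38 exons in the longest coding transcript). Its counts were 1404 and 1453 in unloaded and 1174 and 1082 in loaded libraries. The levels were 48.3 and 47.9 CPM in unloaded and 36.4 and 36.3 CPM in loaded cells, with no overlap. The log2 fold change of -0.41 (SE 0.0911, 95% interval -0.63 to -0.18) corresponds to 0.755 times the unloaded level. The edgeR adjusted p was 0.134 and the DESeq2 adjusted p 0.0838, and no alternative brought it under 0.01 (range 0.0838 to 0.565). Gene counts do not separate the secreted from the membrane-anchored form of agrin.

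The promoters of these 2 genes are shown because they are the secreted members, lie on the same chromosome and were both lower in loaded cells. The windows come from the RefSeq promoter table for GRCm38.p6 and end just before the earliest annotated start, so they hold no transcribed base. Each is read 5′ to 3′ on the strand of the gene, and the capitals mark every GC box, searched as GGGCGG on both strands, where neighbouring boxes may overlap.
*Hspg2*, chr4:137468553-137468768, + strand: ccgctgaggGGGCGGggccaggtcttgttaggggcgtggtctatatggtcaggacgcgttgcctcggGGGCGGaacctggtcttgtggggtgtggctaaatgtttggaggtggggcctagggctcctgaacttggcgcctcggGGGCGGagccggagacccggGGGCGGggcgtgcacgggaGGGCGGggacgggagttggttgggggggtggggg
*Agrn*, chr4:156197489-156197738, - strand: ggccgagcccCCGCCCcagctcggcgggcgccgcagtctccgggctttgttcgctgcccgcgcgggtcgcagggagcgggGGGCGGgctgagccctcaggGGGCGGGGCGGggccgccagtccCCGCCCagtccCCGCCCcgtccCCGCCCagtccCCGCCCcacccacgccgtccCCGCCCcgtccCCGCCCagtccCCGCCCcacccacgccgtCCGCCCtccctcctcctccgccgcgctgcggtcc
The *Hspg2* window holds 5 GC boxes in 216 bases and the *Agrn* window 12 in 250 bases.

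A match of letters is a description and not a binding site. In 250-base windows before the RefSeq start, 32.7% of the 32851 promoters of the table held at least 1 GC box, and 4.09% held at least 4. Entries were found for 6 of the 10 genes, with 7 windows because *Agrn* has 2. The *Sdc4* window held 4 GC boxes, those of *Sdc3* and *Sdc1* held 3 each, the second *Agrn* window held 2, and the *Cd44* window held 0. The GC content of the 7 windows ran from 56.4% for *Cd44* to 83.6% for the first *Agrn* window, beside a median of 52.4% for all promoters. The TEAD motif GGAATG, the AP-1 motif TGANTCA, the antioxidant response element core TGACNNNGC and the E-box CACGTG were not found in any of the 7 windows on either strand. Among all promoters they occurred in 12.6%, 6.75%, 10.2% and 6.02%, respectively. *Gpc1*, *Gpc6*, *Has2* and *Sdc2* were without an entry.

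*Gpc1*, the glypican that carries heparan sulfate on a lipid-anchored core (ENSMUSG00000034220.7, chr1:92831645-92860779, + strand, 9 exons in the longest coding transcript), had 5417 and 5644 counts in unloaded and 7945 and 7788 counts in loaded libraries. Its levels were 187 and 186 CPM in unloaded and 246 and 261 CPM in loaded cells. The lower loaded library was well above both unloaded ones. The mean was 186 ± 0.2 CPM in unloaded and 254 ± 10.7 CPM in loaded cells (SD, n = 2), a log2 fold change of 0.45 with an SE of 0.0646 and a 95% interval from 0.29 to 0.60. As a fold this was 1.36, with an interval from 1.22 to 1.52. The edgeR adjusted p was 0.0486 and the DESeq2 adjusted p 2.64e-05, and the range over the 10 alternatives was 2.64e-05 to 0.155. With any 1 library left out, the log2 fold change stayed between 0.40 and 0.49, but the edgeR adjusted p lay between 0.116 and 0.155. The exons of *Gpc1* share 977 bp with *Ankmy1* on the opposite strand, which had at most 4 counts in any library.

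*Gpc6*, a glypican of the same anchoring type (ENSMUSG00000058571.11, chr14:116925315-117976544, + strand), was low, with 256 and 309 counts in unloaded and 372 and 321 counts in loaded libraries. Its levels were 8.81 and 10.2 CPM in unloaded and 11.5 and 10.8 CPM in loaded cells. The groups did not overlap, but the gap between them was smaller than the gap between the 2 unloaded libraries. The log2 fold change was 0.23 (SE 0.163, 95% interval -0.17 to 0.63, edgeR adjusted p = 0.582). *Gpc2*, *Gpc3*, *Gpc4* and *Gpc5* had 0 counts in every library, which allows up to 3 counts in each. Glypican transcripts were thus almost all *Gpc1*, which made up 96.1% ± 0.392 of the summed per-length level of the family in unloaded and 96.6% ± 0.297 in loaded cells (SD, n = 2). That sum was 128 ± 1.98 TPM in unloaded and 171 ± 4.56 TPM in loaded cells.

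**Figure D2:**
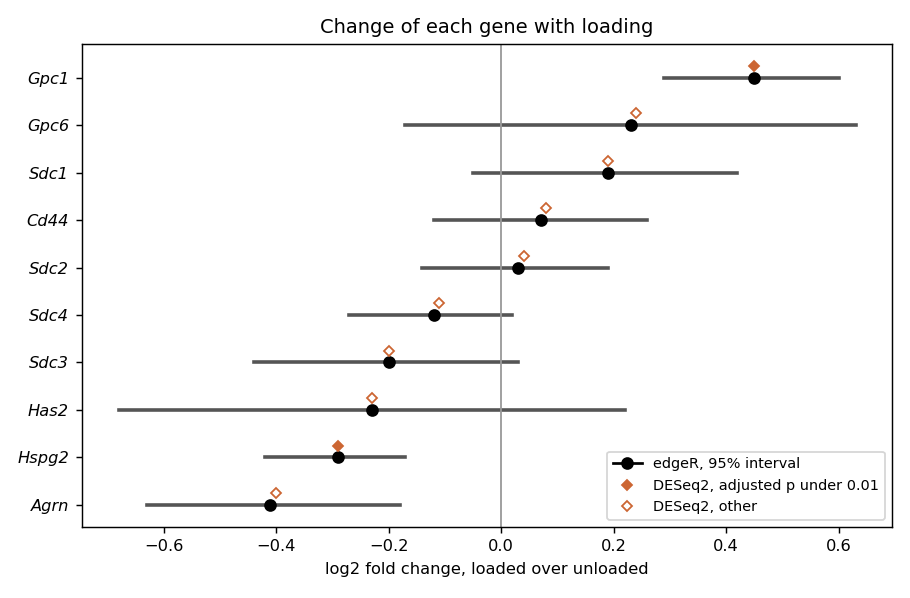
Log2 fold change of loaded over unloaded cells for the 10 genes, in the order of the change. Black points and lines are the edgeR estimate and its 95% interval, and diamonds are the DESeq2 estimate, filled where its adjusted p was under 0.01 (*Gpc1* and *Hspg2*). The intervals of *Gpc1*, *Hspg2* and *Agrn* exclude 0.

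All 4 syndecans were detected in every library. *Sdc4*, found at focal adhesions, was the most abundant of the 4 (ENSMUSG00000017009.3, chr2:164424247-164443887, - strand). It had 276 and 269 CPM in unloaded and 253 and 249 CPM in loaded cells, so both loaded values were lower. The log2 fold change was -0.12 (SE 0.059, 95% interval -0.27 to 0.02, edgeR adjusted p = 0.416). *Sdc2*, also called fibroglycan and common in mesenchymal cells (ENSMUSG00000022261.6, chr15:32920723-33034935, + strand), had 178 and 186 CPM in unloaded and 181 and 191 CPM in loaded cells. The groups overlapped, and the log2 fold change of 0.03 (95% interval -0.14 to 0.19, edgeR adjusted p = 0.897) turned to -0.01 without loaded replicate 2. The interval for *Sdc2* leaves room for a change of at most 0.19 on the log2 scale in either direction.

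*Sdc1*, best known from epithelial and plasma cells (ENSMUSG00000020592.14, chr12:8771323-8793715, + strand), had 1364 and 1551 counts in unloaded and 1825 and 1641 counts in loaded libraries. The levels were 47 and 51.2 CPM in unloaded and 56.6 and 55.1 CPM in loaded cells. Its log2 fold change was 0.19 (SE 0.0975, 95% interval -0.05 to 0.42, edgeR adjusted p = 0.454). *Sdc3*, the syndecan first described in the nervous system (ENSMUSG00000025743.14, chr4:130792537-130826319, + strand), went the other way, with 46.8 and 50.8 CPM in unloaded and 43.1 and 41.6 CPM in loaded cells. Its log2 fold change was -0.20 (SE 0.0978, 95% interval -0.44 to 0.03, edgeR adjusted p = 0.415). Neither gene passed edgeR or DESeq2, although their group values did not overlap. *Sdc3* shares exon bases with 2 antisense genes on the opposite strand, which had at most 3 counts in any library.

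Per length, the summed syndecan level was 614 ± 8.17 TPM in unloaded and 581 ± 5.9 TPM in loaded cells (SD, n = 2). *Sdc4* made up 60.6% and 58.6% of it in unloaded and 57.5% and 56.4% in loaded libraries. *Sdc2* made up 28.2% and 29.3% in unloaded and 29.7% and 31.2% in loaded libraries. *Sdc1* had 6.88% and 7.45%, then 8.61% and 8.35%, and *Sdc3* had 4.37% and 4.7%, then 4.18% and 4.01%. The order *Sdc4*, *Sdc2*, *Sdc1*, *Sdc3* was the same in all 4 libraries, and the share of *Sdc4* was lower in both loaded than in both unloaded libraries. These shares are a description with no test. They depend on gene length: with the mean length of the coding transcripts, the *Sdc3* share became 11.1% in unloaded and 10% in loaded cells, and that of *Sdc4* 52.8% and 50.4%.

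**Figure D3:**
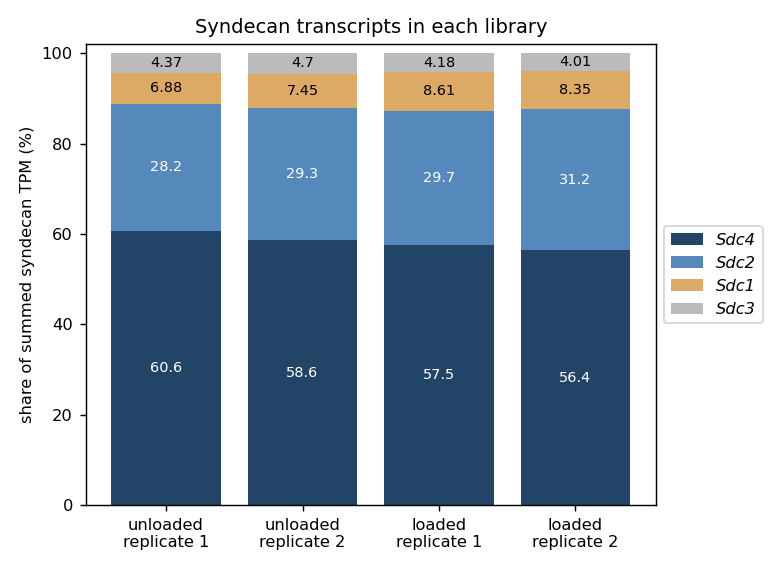
Share of each syndecan in the summed per-length level (TPM) of *Sdc1* to *Sdc4*, in percent, 1 bar per library. *Sdc4* is the largest block in every library, from 56.4% to 60.6%, and *Sdc1* is slightly larger in both loaded libraries than in both unloaded ones.

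*Has2*, the synthase of long hyaluronan chains (ENSMUSG00000022367.7, chr15:56665627-56694539, - strand), was among the lowest of the 10, with 255 and 281 counts in unloaded and 272 and 206 counts in loaded libraries. The levels were 8.78 and 9.27 CPM in unloaded and 8.43 and 6.91 CPM in loaded cells. Both loaded values were lower, and the 2 loaded libraries differed by more than the 2 groups did at their closest. The log2 fold change was -0.23 (SE 0.184, 95% interval -0.68 to 0.22, edgeR adjusted p = 0.625), and it ran from -0.38 to -0.10 when 1 library was left out. Counting error alone was 5.97% to 6.97% of the count in a library. *Has2* shares 182 bp of exon with *Has2os* on the opposite strand, which had 10 to 27 counts. Among the 3 hyaluronan synthases, *Has2* made up 64.3% and 77.4% of the summed TPM in unloaded and 58.5% and 55.3% in loaded libraries. *Has1*, another synthase, had 28.4% and 12.9%, then 35.7% and 35.5%, and *Has3* held the rest, at most 9.69%. The order depends on gene length: with the mean coding transcript length, *Has2* had 46.6% and 63.5% in unloaded and 40.2% and 37.4% in loaded libraries, and *Has1* led in both loaded libraries with 52.9% and 51.8%.

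*Cd44*, the principal hyaluronan receptor (ENSMUSG00000005087.17, chr2:102811141-102901665, - strand), was one of the most abundant of the 10, with 18996 and 20674 counts in unloaded and 21096 and 22313 counts in loaded libraries. The levels were 654 and 682 CPM in unloaded and 654 and 749 CPM in loaded cells. The groups overlapped: one loaded library was level with the lower unloaded one and the other stood above all 3. The log2 fold change was 0.07 (SE 0.0774, 95% interval -0.12 to 0.26, edgeR adjusted p = 0.744), and it turned to -0.03 without loaded replicate 2. The annotation lists 9 transcripts, 8 of them coding, and gene counts do not separate the variant exons.

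Per length of exon, the level in unloaded cells ran in the order *Sdc4* (366 TPM), *Cd44* (337 TPM), *Sdc2* (176 TPM), *Hspg2* (155 TPM), *Gpc1* (123 TPM), *Sdc1* (44 TPM), *Sdc3* (27.8 TPM), *Agrn* (17.7 TPM), *Has2* (7.27 TPM) and *Gpc6* (5.05 TPM). No neighbours in that order overlapped between the 2 unloaded libraries. In loaded cells *Cd44* (348 TPM) and *Sdc4* (331 TPM) overlapped, as did *Has2* (6.09 TPM) and *Gpc6* (5.84 TPM). *Gpc1* (165 TPM) stood above *Hspg2* (125 TPM) in loaded cells and below it in unloaded cells, and the 2 did not overlap in either group. The highest gene was 72.5 times the lowest in unloaded and 59.6 times in loaded cells. With the mean coding transcript length in place of the exon length, *Cd44* came first in both groups, at 425 and 439.9 TPM, and *Has2* last, at 3.93 and 3.30 TPM. The exchange of *Gpc1* and *Hspg2* was seen with both lengths, but only narrowly in unloaded cells with the mean coding transcript length. With that length *Hspg2* was at 84.8 and *Gpc1* at 82.4 TPM in unloaded cells, against 68.3 and 111 TPM in loaded cells.

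**Figure D4:**
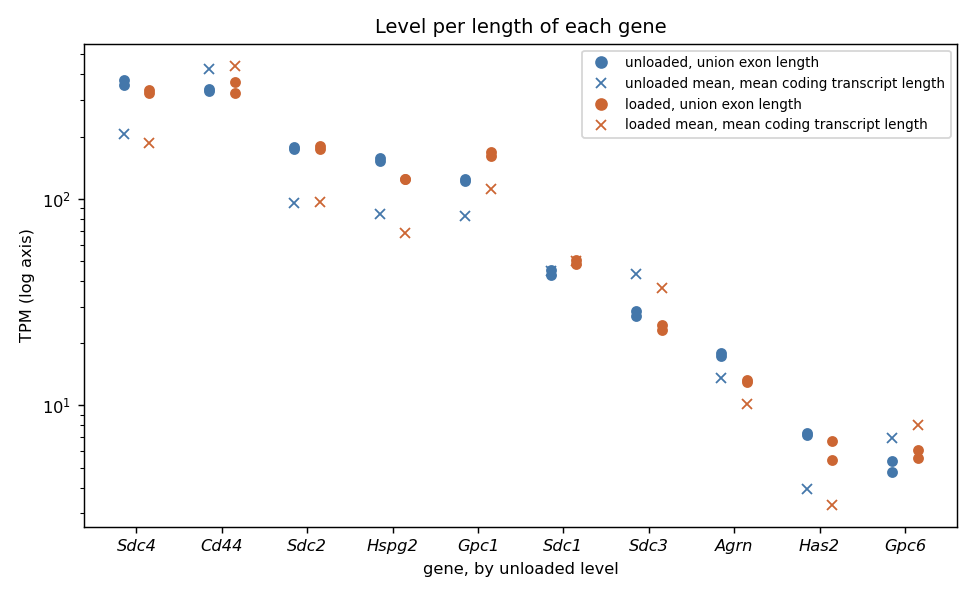
Level per length (TPM, log axis) of the 10 genes, ordered by the unloaded level. Circles are single libraries with the union exon length and crosses are group means with the mean coding transcript length. *Gpc1* lies below *Hspg2* in unloaded and above it in loaded cells.

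The surrounding pathway was described with 9 lists of 124 other genes, of which 88 were tested. By edgeR, 0 of the 88 had an adjusted p under 0.01, and 2 had one under 0.05, *Mmp9* and *Stab1*, both lower. An unadjusted p under 0.05 was found for 7 genes higher and 12 lower. DESeq2 called 1 higher and 5 lower at an adjusted p under 0.01. The shares of all tested genes given above for the same thresholds apply here too. For DESeq2 that share is over the 12484 genes with an adjusted p, and some of the 88 with few counts had none.

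The heparan sulfate core proteins outside the 10 genes numbered 7, and the 3 tested had a median log2 fold change of 0.21. That median is the value of *Col15a1*, which had 28 to 53 counts, overlapping groups and an edgeR adjusted p of 0.891. Its log2 fold change ran from -0.17 to 0.65 when 1 library was left out. *Tgfbr3*, betaglycan, was at 157 CPM in unloaded and 185 CPM in loaded cells (log2 fold change 0.24, edgeR adjusted p = 0.19). *Col18a1*, the collagen that gives rise to endostatin and the most abundant of the list per length, was at 498 and 433 CPM (log2 fold change -0.20, edgeR adjusted p = 0.255).

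Of 27 enzymes that build the linker and the heparan sulfate chain, 19 were tested, 9 fitted higher and 10 lower, with a median of -0.03 and no gene called by edgeR or DESeq2 at 0.01. *Ndst3*, an N-deacetylase and N-sulfotransferase, was at 16.4 and 10.7 CPM (log2 fold change -0.62, edgeR adjusted p = 0.13). *Ext1*, a subunit of the chain polymerase, was at 226 and 189.9 CPM (log2 fold change -0.25, edgeR adjusted p = 0.152). Per exon length it was the highest of the list in unloaded cells, at 95.4 TPM, whereas in loaded cells *Ndst1*, a relative of *Ndst3*, was above it with 93.4 against 79 TPM. With the mean coding transcript length *Ndst1* was above *Ext1* in both groups.

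The list for editing of the chain and shedding of core proteins held 10 genes, 7 of them tested, with 2 fitted higher, 5 lower and a median of -0.16. DESeq2 called 2 of the 7, both lower. *Mmp9*, a gelatinase that also cuts syndecans, had 831 and 843 counts in unloaded and 381 and 328 counts in loaded libraries, and the loaded level was 0.404 times the unloaded one. Its log2 fold change was -1.31 (SE 0.117, edgeR adjusted p = 0.0137, DESeq2 adjusted p = 1.18e-08, range over the alternatives 1.18e-08 to 0.0733). *Hpse*, heparanase, the enzyme that cleaves heparan sulfate chains, had 1263 and 1413 counts in unloaded and 863 and 889 counts in loaded libraries. Its log2 fold change was -0.67 (edgeR adjusted p = 0.0619, DESeq2 adjusted p = 0.00108, range over the alternatives 0.00108 to 0.211). *Adam10*, a sheddase, had a log2 fold change of 0.10, and its replicates lay far apart. It had the highest mean of the list per exon length in both groups, but in replicate 1 it was below *Sulf2* in unloaded and below *Mmp14* in loaded cells. With the mean coding transcript length *Mmp14* was above *Adam10* in both groups. The means were 108 against 107 TPM in unloaded and 124 against 113 TPM in loaded cells.

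Chondroitin and dermatan sulfate proteoglycans numbered 11, with 6 tested, 5 fitted higher and 1 lower, and a median of 0.22. Of those fitted higher, *Dcn*, *Cspg5* and *Prg4* had at most 37 counts in any library and no adjusted p from DESeq2. *Srgn*, also fitted higher, had 539 and 1437 counts in unloaded and 1308 and 1298 counts in loaded libraries. Its log2 fold change ran from -0.17 to 1.18 when 1 library was left out. DESeq2 called 1 in each direction. *Vcan*, versican, which binds hyaluronan and was the highest of the list per length, was at 852 and 813 CPM in unloaded and 996 and 1012 CPM in loaded cells (log2 fold change 0.27, edgeR adjusted p = 0.104, DESeq2 adjusted p = 0.00595, range 0.00595 to 0.36). *Bgn*, biglycan, a small proteoglycan of bone matrix, was at 196 and 225 CPM in unloaded and 151 and 165 CPM in loaded cells (log2 fold change -0.41, edgeR adjusted p = 0.134, DESeq2 adjusted p = 0.00389, range 0.00389 to 0.346). Of 16 enzymes of these chains, 14 were tested, 8 fitted higher and 6 lower, with a median of 0.02 and no call. *Chsy1*, a chondroitin synthase, was at 55.1 and 72.2 CPM (log2 fold change 0.39, edgeR adjusted p = 0.152). It was the highest of the list per exon length in loaded cells only, at 58.1 TPM, and *Dse*, dermatan sulfate epimerase, was above it in unloaded cells with 48.1 against 45.1 TPM. With the mean coding transcript length *Dse* was above *Chsy1* in both groups. *Chst15*, a sulfotransferase, was at 27 and 21.9 CPM (log2 fold change -0.30, edgeR adjusted p = 0.272).

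**Figure D5:**
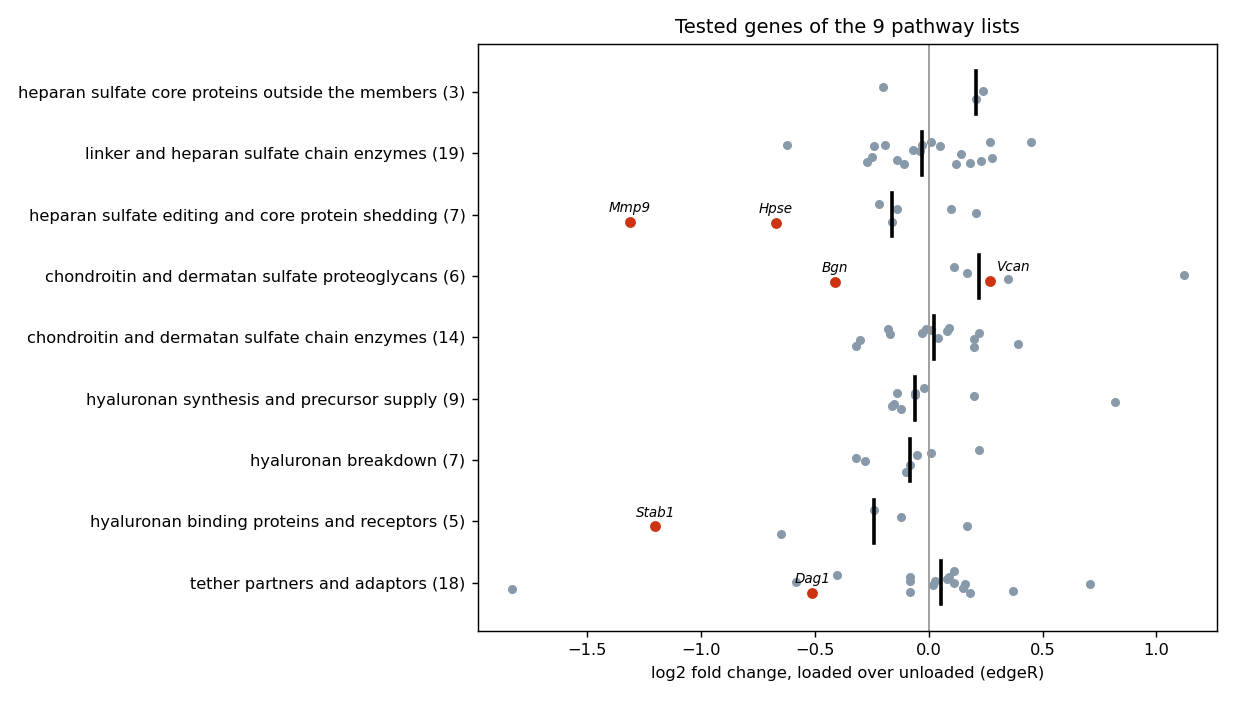
Log2 fold change (edgeR, loaded over unloaded) of the tested genes of the 9 pathway lists, 1 point per gene, with the number tested in brackets and the median as a bar. Red, labelled points had a DESeq2 adjusted p under 0.01: *Mmp9*, *Hpse*, *Bgn*, *Stab1* and *Dag1* were lower and *Vcan* was higher.

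Hyaluronan synthesis and precursor supply held 9 genes, all tested, with 2 fitted higher, 7 lower and a median of -0.06. *Has1* had 120 and 50 counts in unloaded and 177 and 141 counts in loaded libraries (log2 fold change 0.82, SE 0.433, edgeR adjusted p = 0.455), and its unloaded libraries lay far apart. *Gfpt1*, the entry enzyme of the hexosamine pathway, was at 149 and 133 CPM (log2 fold change -0.16, edgeR adjusted p = 0.384), and *Ugdh*, which makes UDP-glucuronate and was the highest per length, was at 259 and 248 CPM. Of 9 genes of hyaluronan breakdown, 7 were tested, 2 fitted higher and 5 lower, with a median of -0.08. *Cemip*, a hyaluronan-degrading protein, was at 58.8 and 47 CPM (log2 fold change -0.32, edgeR adjusted p = 0.318), and its relative *Cemip2* was at 31 and 25.5 CPM. *Hexa*, a lysosomal hexosaminidase subunit and the highest of the list, was at 94.5 and 95.1 CPM. Neither list held a call by edgeR or DESeq2 at 0.01.

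Of 15 hyaluronan binding proteins and receptors outside *Cd44*, 5 were tested, 1 fitted higher and 4 lower, with a median of -0.24. That median is the value of *Hapln4*, which had 56 to 93 counts and overlapping groups. Another of the 4, *Stab2*, had 3 to 27 counts. Its log2 fold change ran from -1.51 to 1.68 when 1 library was left out. *Stab1*, a scavenger receptor known from macrophages and sinusoidal endothelium, had 542 and 523 counts in unloaded and 270 and 217 counts in loaded libraries. Its log2 fold change was -1.20 (SE 0.153, edgeR adjusted p = 0.0369, DESeq2 adjusted p = 8.58e-05, range 8.58e-05 to 0.131). Beside it, the macrophage marker *Cd68* was also lower in both loaded libraries (log2 fold change -0.80, edgeR adjusted p = 0.216). From the same marker list, *Ctsk* was higher in both loaded libraries (log2 fold change 0.61, edgeR adjusted p = 0.228), and *Csf1r* had a log2 fold change of -0.02. *Ptprc*, *Adgre1* and *Acp5* were at 0 in 3 of the 4 libraries. *Layn*, layilin, which was the highest of the list per exon length in loaded cells and level with the hyaluronan receptor *Hmmr* in unloaded cells (106 and 107 TPM), was at 75.1 and 84.6 CPM (log2 fold change 0.17, edgeR adjusted p = 0.443).

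The last list held 20 partners and adaptors of the coat, of which 18 were tested, 11 fitted higher and 7 lower, with a median of 0.05. *Dag1*, dystroglycan, a receptor for perlecan and agrin, had 7873 and 7697 counts in unloaded and 6258 and 5204 counts in loaded libraries. The level was 263 ± 12.1 CPM in unloaded and 184 ± 13.7 CPM in loaded cells (SD, n = 2), a log2 fold change of -0.51 (SE 0.0786). The edgeR adjusted p was 0.058 and the DESeq2 adjusted p 1.15e-05, with a range over the alternatives of 1.15e-05 to 0.175. *Itgb1*, the integrin beta-1 chain and the highest of the list per length, was at 731 and 789.7 CPM (log2 fold change 0.11, edgeR adjusted p = 0.581). *Lama5*, a laminin chain that is bound by dystroglycan, was named after its values were seen: it was at 39.5 and 39.3 CPM in unloaded and 29.6 and 29.9 CPM in loaded cells (log2 fold change -0.40, edgeR adjusted p = 0.139). *Lamc1*, another laminin chain of the list, also named after its values were seen, was at 366 and 342 CPM in unloaded and 397 and 404 CPM in loaded cells (log2 fold change 0.18, edgeR adjusted p = 0.284).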

How the data were processed

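Per the labels and the methods, the authors removed adaptors and low-quality reads, aligned the rest to mm10 using HISAT2 2.1.0, assembled transcripts with StringTie 1.3.5 and wrote the deposited gene counts with StringTie's prepDE script. Strandedness and annotation are not given in the sources used here; all gene identifiers matched GENCODE M21 (GRCm38). Groups came from the sample titles. ChIP-seq data were not used here.

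Here, genes were kept by filterByExpr (minimum count 10) and tested with the quasi-likelihood test of edgeR 4.0.16 in R 4.3.3, with TMM factors and Benjamini-Hochberg adjustment over 16269 genes. The threshold was an adjusted p under 0.01, as in the methods. DESeq2 1.42.0, the authors' tool in another version, was an alternative, beside other factors, filters, thresholds and left-out libraries. CPM values are TMM-normalized. TPM values are counts per union exon length scaled to the usual TPM total over all genes; the alternative used the mean coding transcript length. The 95% intervals come from the SE of the edgeR fit. Counting errors and the floor of 3 counts cover counting error only. The procedure was tested on simulated data only for changes larger than those fitted for the 10 genes, so that test does not cover changes of their size. Figures were drawn with matplotlib 3.10.9.

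The 10 genes and all lists were chosen with earlier results of these data known. From each list the text names every gene with an adjusted p under 0.01 in edgeR or DESeq2, otherwise the 2 with the smallest p, and the gene with the highest level per length. Some others are named to show what a count, a median or an order rests on.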

Additional observations from a re-analysis of the deposited data

How the results depend on the processing

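With 2 samples a group, which genes passed 0.01 depended on the test. Of the 10 genes, 0 were called by edgeR, 2 by DESeq2 and 1 by edgeR at an adjusted p under 0.05. Over all genes, edgeR called 16, and 147 at 0.05, 0 with no filter on low counts and 29 with at least 10 counts in every library, against 363 by DESeq2. Without unloaded replicate 1 it called 43, without unloaded replicate 2 it called 38, and without either loaded library 0. The replicate block gave 0 calls by edgeR and, chosen after seeing the data, 158 by DESeq2, with 0 of the 10 genes in either (DESeq2 adjusted p with the replicate block 0.0143 for *Gpc1* and 0.221 for *Hspg2*). Same-numbered libraries did not deviate together when all tested genes were pooled (r = -0.057 over 16269 genes). A pooled correlation cannot tell whether same-numbered samples shared a culture or batch, and no label names one. With DESeq2 the list for chain editing and shedding had 2 calls, the chondroitin and dermatan sulfate proteoglycans 2, the hyaluronan binding proteins 1 and the partners and adaptors 1; at 0.05 edgeR called 1 in the first and 1 in the hyaluronan binding list. Leaving out 1 library gave log2 fold changes of -0.01 to 0.07 for *Sdc2* and -0.03 to 0.16 for *Cd44*, and both turned negative without loaded replicate 2. The other 8 genes kept their direction in all 10 alternatives. Levels per length of 9 genes, in both groups, and all syndecan shares moved by more than the SD with the other gene length. The causes were not tested.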

Other observations

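The genes below are named after their values were seen. In the first 2, *Itgav* and *Chpf2*, the loaded libraries lay far apart. *Itgav*, the integrin alpha-V chain, had 5984 and 5980 counts in unloaded and 5899 and 14157 counts in loaded libraries, with a log2 fold change of 0.71 (SE 0.395, edgeR adjusted p = 0.482) that ran from -0.14 to 1.24 when 1 library was left out. *Chpf2*, a chondroitin polymerizing factor, had 1670 and 1771 counts in unloaded and 2857 and 421 counts in loaded libraries (log2 fold change -0.17, SE 0.712, edgeR adjusted p = 0.944). *Adam10* had 3474 and 5579 counts in unloaded and 3604 and 6364 counts in loaded libraries, so replicate 2 was the higher one in both groups. Several genes with few counts had no overlap between the groups, which also held for 46.6% of all tested genes. Of these genes with few counts, *Nid1* and *Kdr* are given, and others were *Fgf23*, *Tnfaip6*, *Nid2*, *Sdcbp2* and *Extl1*, lower, and *Cspg5*, higher. *Fgf23*, *Tnfaip6* and *Nid2* were not tested, so the share of 46.6% does not cover them. *Nid1*, nidogen 1, a basement membrane protein that binds perlecan, had 36 and 60 counts in unloaded and 16 and 12 counts in loaded libraries (log2 fold change -1.83, SE 0.495, edgeR adjusted p = 0.182). *Kdr*, an endothelial receptor, had 0 counts in both unloaded and 17 and 14 counts in loaded libraries (edgeR adjusted p = 0.135). The endothelial markers *Pecam1* and *Cdh5* fitted lower, with overlapping groups (log2 fold changes -0.96 and -0.59), and *Tek* was not tested.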
